A study of Homo sapiens with 9 samples.

Results

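H3K4me3, the histone mark found at active and poised transcription start sites, was followed at 10 genes of the G1 cell cycle machinery in HEL cells, a human erythroleukemia line. The genes were the cyclins CCND2, CCND3 and CCNE1, the kinases CDK2, CDK4 and CDK6, the kinase inhibitors CDKN1A, CDKN1B and CDKN2A, and the pocket protein gene RB1, 10 of 20163 protein-coding genes. They were chosen by name, and for each the largest peak signal within 1 kb of any start annotated in GENCODE (release 44, placed on hg19) was read in each library. A second reading took a window of 5 kb. H3K4me3 was mapped by CUT&RUN, in which antibody-tethered micrococcal nuclease releases DNA fragments from intact nuclei. HEL cells carried a non-targeting control guide (NTC, 3 libraries) or guides against METTL3 (METTL3-KO, 2 libraries), METTL14 (METTL14-KO, 2 libraries) or WTAP (WTAP-KO, 2 libraries), the subunits of the complex that writes N6-methyladenosine on mRNA. The study delivered its guides on lentiCRISPRv2 and does not describe the KO cells as clones, and an H3K4me3 map does not itself measure how completely a target was disrupted. The labels do not say that libraries of a group came from separate cultures, so the p-values measure the spread between these libraries, which may be technical.

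In G1, D-type cyclins bind CDK4 and CDK6, and cyclin E binds CDK2. These kinases phosphorylate the retinoblastoma protein RB1, which then releases E2F transcription factors and permits entry into S phase. CDKN1A (p21) and CDKN1B (p27) restrain CDK2, and CDKN2A (p16) blocks CDK4 and CDK6. Red cell precursors pass through a few rapid divisions before they leave the cycle, and CDKN1B and RB1 are known for their part in that exit.

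The lists held 21724 to 21941 peaks in NTC, 9205 and 9369 in METTL3-KO, 3169 and 5286 in METTL14-KO, and 3160 and 3673 in WTAP-KO. Every list held peaks of 150 to at most 2000 bp, and none was wider. Of the peaks in NTC libraries, 4.14% to 4.49% were wider than 1800 bp, against 0.285% to 1.24% in KO libraries. A start without a called peak is therefore reported as listed without a peak, since a domain wider than 2000 bp would not appear in the lists. Of 10 erythroid markers, 8 had a promoter peak in each NTC library, among them GATA1, TAL1 and EPOR, with ANK1 at 0 in all of them. In KO libraries 1 to 5 were marked and GATA1 was at 0, but ANK1 had a peak in all 6, while the summed erythroid signal ran from 28602 to 33046 in NTC and from 2070 to 17672 in KO. Of 5 megakaryocytic markers, 2 or 3 were marked in every library, with PF4 at 0 throughout (summed signal 13300 to 49799 in NTC and 7651 to 20722 in KO). Of 5 myeloid markers, 1 was marked in each NTC library (CEBPA) and in 1 KO library (CD33), with SPI1, CSF1R and CD14 at 0 throughout. The part of these shifts in the results below was not tested.

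Each NTC library held a peak within 1 kb of a start for 7 of the 10 genes. The same number was found in both METTL3-KO libraries, against 4 and 2 in METTL14-KO and 3 in each WTAP-KO library. Over all protein-coding genes the share marked was 47.4% ± 0.55 (SD, n = 3) in NTC, 34.0% ± 0.80 (n = 2) in METTL3-KO, 17.2% ± 5.62 (n = 2) in METTL14-KO and 12.2% ± 1.08 (n = 2) in WTAP-KO. The 7 genes of METTL3-KO were not those of NTC: RB1 was marked in both libraries and CCNE1 in neither, CDK4 was marked in replicate 1, and CDKN1A in replicate 2. Of the 7 members marked throughout NTC, 5 had a peak in both METTL3-KO libraries (39.9% of the 8495 genes that had one in every NTC library) and 1 in neither (46.3%). In METTL14-KO 2 of the 7 had a peak in both libraries (13.1%) and 3 in neither (73.3%), and in WTAP-KO 2 had a peak in both (9.37%) and 5 in neither (84.9%). The 2 genes with a peak near any start in each KO library were CCND3 and CDKN1B, though not always at the start marked in NTC. With the window at 5 kb, 7 members were marked in each NTC library, 7 and 8 in METTL3-KO, 5 and 4 in METTL14-KO, and 3 and 4 in WTAP-KO.

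**Figure D1:**
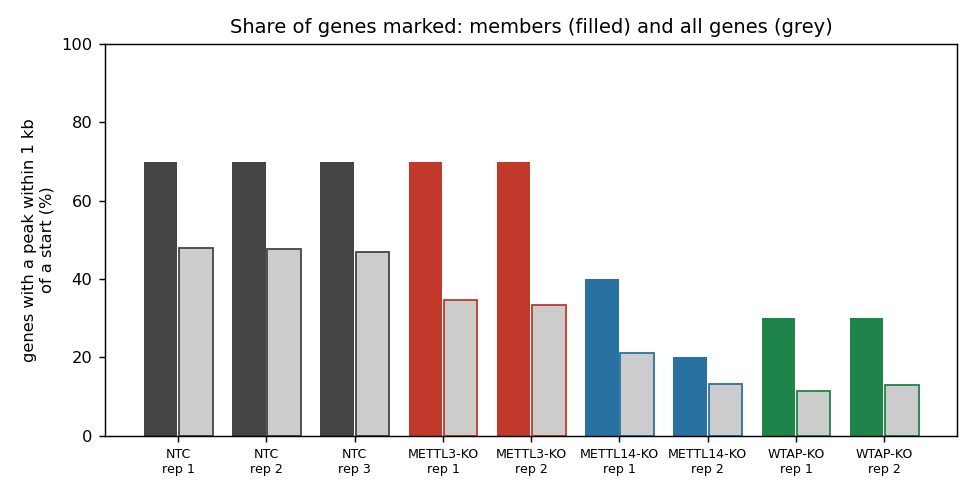
Share of genes with an H3K4me3 peak within 1 kb of a start (percent, y axis) in each of the 9 libraries, for the 10 members (filled bars) and all 20163 protein-coding genes (grey bars). Members stood at 70% in the NTC and METTL3-KO libraries, at 40% and 20% in METTL14-KO and at 30% in WTAP-KO, above the bar of all genes in each library.

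Of the 10 genes, 8 had a promoter peak in at least 2 libraries and were tested with limma among 12037 genes, 59.7% of all. CDKN1A and CDKN2A, with a peak in 1 library and in none, were not tested, like 40.3% of all genes. When the 6 KO libraries were set against NTC, 7 members fell (CCND2, CCND3, CCNE1, CDK2, CDK4, CDK6 and CDKN1B) and RB1 rose. Among all genes tested 73% fell and 14.3% rose, so that most promoters fell and a lower signal was the rule for any gene. The median log2 change of signal was -5.61 over the 8 members and -5.30 over all genes tested. For single KO groups, 5 members fell and RB1 rose in METTL3-KO (60.9% and 14% of all genes), 7 fell in METTL14-KO (68.8%; 8.38% of all genes rose), and 7 fell and RB1 rose in WTAP-KO (69.7% and 6.81%). The median log2 changes of the members were -2.57, -5.97 and -6.89 in the 3 KO groups, beside -3.48, -5.57 and -5.97 over all genes. Since many genes had no peak in a whole group, these medians depend on the pseudocount. The 3 comparisons share the NTC libraries. In an exact permutation test over the 84 ways to place the NTC labels, the 7 members that fell had a two-sided p of 0.0238, the smallest it can give, as for 74% of genes tested, and RB1 had p = 0.238.

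**Figure D2:**
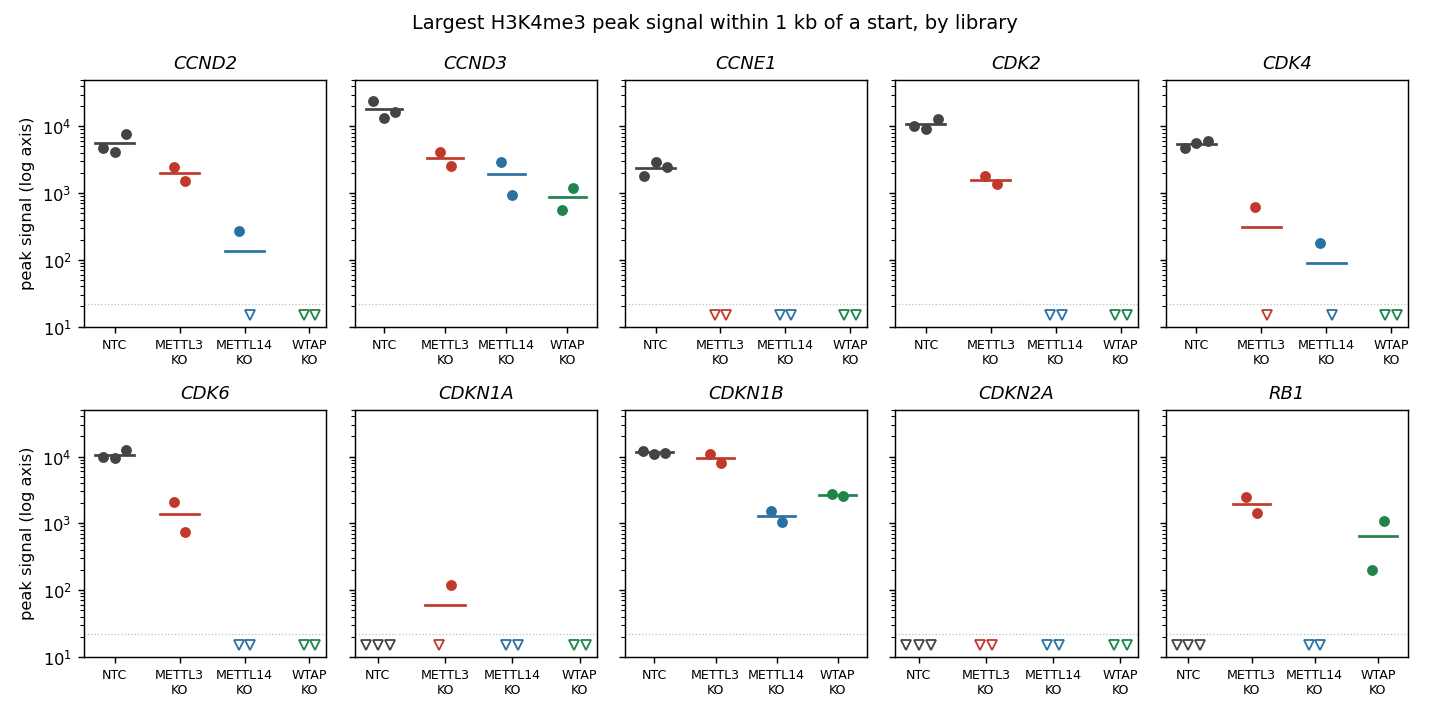
Largest H3K4me3 peak signal within 1 kb of a start (log axis, units as deposited) for each of the 10 genes in the 3 NTC and 2 libraries of each KO group. Filled points are libraries, horizontal lines are group means with missing peaks counted as 0, and open triangles under the dotted line are libraries listed without a peak. For 7 genes every NTC point lies above every KO point, with CDKN1B in METTL3-KO closest, while RB1 has points in METTL3-KO and WTAP-KO but not in NTC.

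Among the D-type cyclins, CCND3, the main D-type cyclin of red cell precursors, carried the strongest signal of the 10 genes in NTC. Its signal was 24056, 13312 and 16682 in the 3 NTC libraries, 4188 and 2565 in METTL3-KO, 2904 and 947 in METTL14-KO, and 558 and 1179 in WTAP-KO. Every KO value lay under the lowest NTC value, as for 68.3% of the genes tested. Against the NTC mean of 18017 ± 5495 (SD, n = 3), the 3 KO means came to 18.7%, 10.7% and 4.82%. The log2 change was -2.40 ± 0.60 (SE) in METTL3-KO (limma, adjusted p = 0.0099), -3.37 ± 0.60 in METTL14-KO (adjusted p = 0.0019) and -4.38 ± 0.60 in WTAP-KO (adjusted p = 0.00051). CCND3 spans chr6:41902672-42018095 on the minus strand, and NTC peaks overlapped 2 groups of its starts. One lay at the outermost start, 42018095, where the peak was shared with TAF8, a TFIID subunit gene that starts within 1 kb. There NTC peaks ran from 42017683 to 42019107, while KO peaks ran from 42018271 to 42018871. The other lay at the canonical start, 41909546. There NTC replicate 1 alone had an NTC peak (24056, 41909491 to 41910603), and both METTL3-KO libraries (3349 and 1828) and both METTL14-KO libraries (2233 and 947) had one too. The CCND3 signal in NTC replicate 1 thus came from another start than that in NTC replicates 2 and 3. KO libraries also had CCND3 peaks at places without an NTC peak. At 42015769 to 42016735, over a further group of starts, METTL3-KO had 3189 and 1082 and METTL14-KO replicate 1 had 1045. No NTC peak overlapped this group, but the outermost peaks of NTC replicates 2 and 3 came within 1 kb of it. In the separate test of groups of starts it therefore held 13312 and 16682 in these libraries. At 41907181 to 41907891 METTL3-KO had 1656 and 436 and METTL14-KO replicate 1 had 1932. At 41908390 to 41909253 METTL3-KO had 1009 and 1341. When groups of starts were tested separately, an alternative added after the data were seen, no CCND3 group passed in METTL3-KO or WTAP-KO (smallest adjusted p 0.33 and 0.087), while the outermost start fell in METTL14-KO (adjusted p = 0.028). The fall in METTL3-KO also did not pass with peaks summed (adjusted p = 0.37) or after centring (-0.62 ± 0.37, adjusted p = 0.19). It was lost, too, when peaks weaker than the median NTC peak were dropped (adjusted p = 0.26). With each library's signal divided by the smallest step between its values, CCND3 passed in neither METTL3-KO nor METTL14-KO. Centring also removed the call in METTL14-KO (-0.31, adjusted p = 0.49) and in WTAP-KO (-0.70, adjusted p = 0.13). Without METTL3-KO replicate 2 the log2 change in METTL3-KO was -2.05 ± 0.79.

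By log2 signal over the 9 libraries, the protein-coding genes nearest to CCND3 included NSUN4, a mitochondrial RNA methyltransferase gene, at a Euclidean distance of 0.99, and POC1A, a centriole gene, at 1.06. Both had a peak in every library.

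CCND2, which pairs with the same kinases, had a signal of 4696, 4173 and 7797 in NTC, 2420 and 1529 in METTL3-KO, and 273 in METTL14-KO replicate 1. No peak was listed within 1 kb in METTL14-KO replicate 2 or in WTAP-KO. METTL3-KO averaged 35.5% of the NTC mean. Its log2 change of -1.46 ± 0.95 (SE) did not pass the test (limma, adjusted p = 0.20), although both libraries lay below all of NTC, and the same change passed without METTL14-KO replicate 1 or 2, which share the estimate of spread (adjusted p = 0.016 and 0.017). CCND2 fell in METTL14-KO (adjusted p = 0.0013) and in WTAP-KO (adjusted p = 0.00035). METTL3-KO stood above METTL14-KO and WTAP-KO as 1 group (adjusted p = 0.0065), a call lost at 5 kb (adjusted p = 0.076) and without METTL3-KO replicate 1 (0.051).

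The NTC and KO peaks of CCND2 lay at different places. In NTC the main peak ended 604 to 652 bp before the first start (chr12:4378937), and the next NTC peak began 756 and 1021 bp after the canonical start (4382928) in replicates 2 and 3. The stretch between them was 5398 and 5615 bp and held no NTC peak. In KO libraries 8 and 9 peaks lay wholly inside these stretches, among them 2420 and 1943 in METTL3-KO replicate 1 and 765 in METTL14-KO replicate 1. With the window at 5 kb, METTL14-KO replicate 1 reached 765 and WTAP-KO replicate 2 had a peak of 186.

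CCNE1, the cyclin that activates CDK2, was the one member with a peak in all NTC libraries and none in any KO library. Its NTC signal was 1808, 2971 and 2424, with a mean of 2401 ± 582 (SD, n = 3), at the 24th percentile of the 8495 genes that had one in every NTC library. Of those 8495 genes, 45.8% likewise had no promoter peak in any KO library. No peak appeared at 5 kb either, and the limma adjusted p was 9.3e-08 for the 6 KO libraries together. The size of the fitted change against NTC is set by the pseudocount and is not given, as for CCND2, CDK2, CDK4, CDK6 and RB1 where a whole group was listed at 0. A group listed at 0 throughout adds no spread to the fit, so the limma p-values in these cases may be too small. In the exact permutation test CCNE1 had p = 0.0238, the smallest it can give. NTC peaks were 444, 598 and 532 bp wide and ended 568, 459 and 479 bp before the start. They therefore lay outside the gene, in the upstream flank, and the promoter next to the start had no called peak in any library.

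The 250 bases before the start of CCNE1 at 30302898 (hg19 chr19:30302648-30302897, plus strand) are shown because this promoter stayed without a called peak while the flank upstream of it carried the mark in NTC. Capitals mark the GC box, GGGCGG on either strand.
CCNE1 before the start: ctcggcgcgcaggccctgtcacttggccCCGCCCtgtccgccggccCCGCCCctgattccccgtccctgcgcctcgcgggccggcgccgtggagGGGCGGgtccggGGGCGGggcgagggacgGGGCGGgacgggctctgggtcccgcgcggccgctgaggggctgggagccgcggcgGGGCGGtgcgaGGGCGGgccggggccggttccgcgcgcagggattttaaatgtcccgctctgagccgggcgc
The promoter had a GC content of 81.2%, 39 CpG dinucleotides and 7 GC boxes, and 2.13% of 19862 promoters of the same length held as many. It did not hold the E2F motif, searched as TTTCCCGC, TTTGGCGC, TTTCGCGC or TTTGCCGC on either strand. The GC box stood in 59.2% of the 19862 promoters and the E2F motif in 3.77%. No match of one motif overlapped one of the other.

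CDK2, the partner of cyclin E, had an NTC signal of 10092, 9058 and 12950 over a peak of 1583 to 1612 bp that covered its start. Both METTL3-KO libraries kept a narrower peak at the start, 757 and 615 bp wide, with signals of 1778 and 1357. The METTL14-KO and WTAP-KO libraries had none within 1 kb. The METTL3-KO mean was 14.7% of the NTC mean, a log2 change of -2.74 ± 0.30 (SE, limma adjusted p = 0.00019). After each library was centred on the genes marked in all 9 libraries, it was -0.96 ± 0.44 and did not pass (adjusted p = 0.093). CDK2 fell in METTL14-KO and WTAP-KO (adjusted p = 5.1e-07 in both) and stood higher in METTL3-KO than in those 2 groups together (adjusted p = 3.3e-05). The peak reached within 1 kb of a start of PMEL, a pigment cell gene on the opposite strand. At 5 kb, further peaks of METTL3-KO and METTL14-KO lay 2092 to 2852 bp from the nearest CDK2 start, within 1 kb of starts of PMEL and RAB5B, and NTC had none there.

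CDK6, one of the kinases that D-type cyclins activate, had the same order of groups. Its NTC signal was 9841, 9374 and 12711, and METTL3-KO had 2057 and 744. METTL14-KO and WTAP-KO had no peak within 5 kb. Among the 8495 genes with a peak throughout NTC, 13.8% showed the pattern of CDK2 and CDK6, with a peak in both METTL3-KO libraries and none in METTL14-KO or WTAP-KO. The METTL3-KO mean of CDK6 was 13.2% of the NTC mean and the log2 change -3.06 ± 0.46 (SE, limma adjusted p = 0.00098). The adjusted p was 4.1e-06 in METTL14-KO and in WTAP-KO, and 0.00018 for METTL3-KO against those 2 groups. The largest NTC peak lay upstream of the start (chr7:92465887, minus strand) in all 3 libraries, with its near edge 290 to 309 bp away. NTC replicate 2 also had peaks inside the gene, the closest of them 7 bp from the start with a signal of 4083. The largest peak of METTL3-KO replicate 2 lay within that closest NTC peak, 453 bp from the start, beside one of 698 upstream.

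CDK4, the other kinase of D-type cyclins, was lower in every KO library. Its NTC signal was 4745, 5723 and 6082. In KO libraries, METTL3-KO replicate 1 had 620 and METTL14-KO replicate 1 had 179, and the other 4 had no peak within 1 kb. The change passed the test in METTL3-KO (log2 change -5.30 ± 1.38, SE, limma adjusted p = 0.012), METTL14-KO (-6.12 ± 1.38, adjusted p = 0.0059) and WTAP-KO (adjusted p = 0.0021). With 1 library of the pair at 0, the METTL3-KO value was -7.52 without replicate 1 and -3.08 without replicate 2, and -6.99 and -3.46 with a pseudocount 0.1 and 10 times as large. The change in METTL3-KO did not pass with each library's signal divided by the smallest step between its values. At 1 kb METTL3-KO did not differ from the other KO groups by the test (1.52 ± 1.31, adjusted p = 0.50), and 1 library set this value: it was -0.70 without METTL3-KO replicate 1 and 3.73 without replicate 2 (adjusted p = 0.97 and 0.046). NTC peaks stood at the canonical start (58146093, signals 4745 to 5832) and at the outer start (58149796, signals 3961 to 6082), the second within 1 kb of a start of MARCHF9. The METTL14-KO replicate 1 peak of 179 lay near the outer start, and the NTC replicate 3 value of 6082 also came from there. Neither METTL14-KO library had a peak within 1 kb of the canonical group of starts. At 5 kb the largest signal came from a peak 3913 to 4757 bp away, within 1 kb of a start of TSPAN31, at 10728 to 12700 in NTC, 862 and 1185 in METTL3-KO, and 613 and 1574 in METTL14-KO. WTAP-KO had no peak there. These values at 5 kb therefore belong to a peak that also lies at the TSPAN31 promoter. At this window METTL3-KO was higher than the other KO groups (2.57 ± 0.46, adjusted p = 0.0075).

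Per bp of peak width, the NTC signal of the marked members ran in the order CCND3 (14.3 ± 6.47, SD, n = 3), CDK6 (8.65 ± 2.20), CCND2 (8.26 ± 2.53), CDKN1B (7.84 ± 1.15), CDK2 (6.68 ± 1.24), CDK4 (5.62 ± 0.23) and CCNE1 (4.53 ± 0.45). Neighbours from CCND3 to CDK4 differed by less than the larger of their SDs, and CDK4 and CCNE1 by more. The median over the 8495 genes was 4.81.

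The inhibitor CDKN1B, which holds CDK2 inactive, had a peak near some start in all 9 libraries, as did CCND3, against 7.83% of the 8495 genes with a peak in all 6 KO libraries. Its signal was 12156, 10979 and 11403 in NTC, 10840 and 7927 in METTL3-KO, 1532 and 1047 in METTL14-KO, and 2726 and 2582 in WTAP-KO. METTL3-KO reached almost to the lowest NTC value, and its mean was 81.5% of the NTC mean (log2 change -0.31 ± 0.24, SE), which did not pass the test (limma adjusted p = 0.27). METTL14-KO averaged 11.2% (-3.15 ± 0.24, adjusted p = 2.3e-05) and WTAP-KO 23.1% (-2.10 ± 0.24, adjusted p = 0.00019). METTL3-KO was higher than those 2 groups together by 2.32 ± 0.23 (adjusted p = 0.00043), as were CCND2, CDK2, CDK6 and RB1, while 29.5% of all genes tested were higher and 0.582% lower. Both METTL3-KO libraries exceeded the 4 others for these 5 members, as for 41.6% of genes tested. When each library was centred on the genes marked in all 9 libraries, the change of CDKN1B over the 6 KO libraries turned from -1.86 ± 0.18 to 0.98 ± 0.19. With each library's signal divided by the smallest step between its values it did not pass (-0.47 ± 0.40, adjusted p = 0.30).

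These values of CDKN1B came from different starts. The NTC peak stood at an outer start (12849281) and within 1 kb of a start of GPR19, a G protein-coupled receptor gene on the opposite strand. KO libraries had 2471 and 1092 there in METTL3-KO, 883 in METTL14-KO replicate 1 and 236 in WTAP-KO replicate 2, and none in the other 2. Within 1 kb of the canonical group of starts (12870302 to 12870795) no NTC library had a peak, and all 6 KO libraries did, with 10840 and 7927 in METTL3-KO, 1532 and 1047 in METTL14-KO, and 2726 and 2582 in WTAP-KO. With groups of starts tested separately, the outer start fell over the 6 KO libraries (log2 change -5.30 ± 1.22, SE, limma adjusted p = 0.0061), as did 72.4% of 14535 such groups. The canonical group rose (adjusted p = 4.1e-07, with NTC listed at 0 and so adding no spread), as did 15.2%. The stretch without an NTC peak around the canonical start was 27192 bp in NTC replicate 1, 27311 bp in replicate 2 and 39195 bp in replicate 3. It held 19, 19 and 24 KO peaks. The part of the 2000 bp limit on listed peaks in this rise was not tested.

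The 250 bases before the canonical start of CDKN1B (hg19 chr12:12870052-12870301, plus strand) are shown because peaks of 4 KO libraries and of no NTC library overlapped them. Capitals mark the GC box.
CDKN1B before the canonical start: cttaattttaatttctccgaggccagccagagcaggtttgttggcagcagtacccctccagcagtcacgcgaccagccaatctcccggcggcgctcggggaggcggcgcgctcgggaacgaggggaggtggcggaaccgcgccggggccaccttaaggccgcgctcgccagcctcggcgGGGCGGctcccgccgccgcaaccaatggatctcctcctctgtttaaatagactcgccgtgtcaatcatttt
It had a GC content of 64.4%, against a median of 63.2% over all promoters read, 27 CpG against a median of 18, 1 GC box and no E2F motif.

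**Figure D3:**
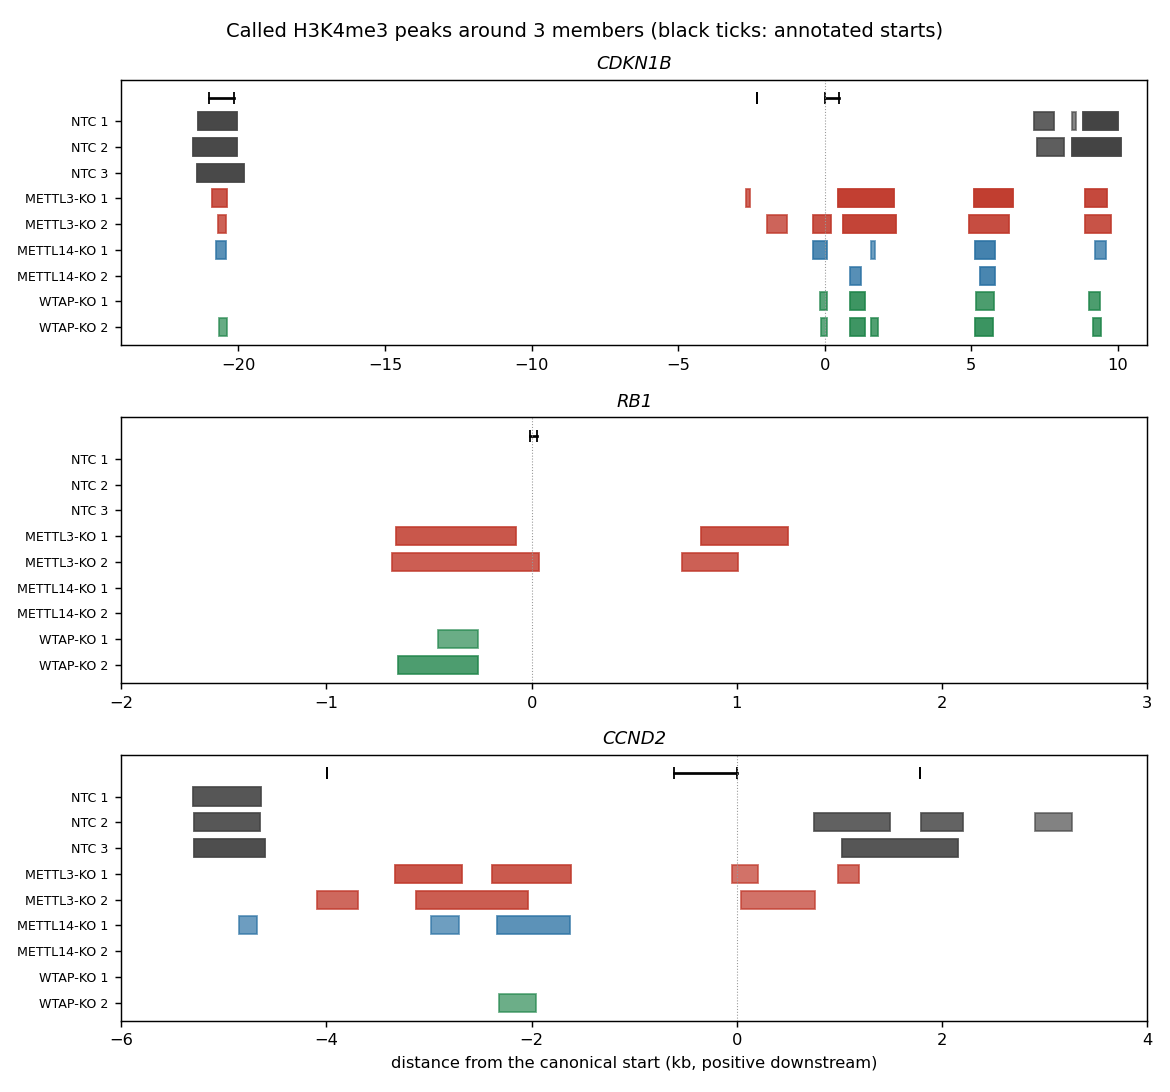
Called H3K4me3 peaks (bars) in the 9 libraries around CDKN1B, RB1 and CCND2, by distance from the canonical start (kb, positive downstream). Black ticks and joined ticks at the top of each panel are annotated starts, and darker bars have a higher signal on a log scale. KO peaks near the canonical start of CDKN1B, the start of RB1 and between the NTC peaks of CCND2 lie where no NTC library has a peak.

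RB1 (chr13:48877880-49173572, plus strand), the substrate of these kinases, was the only member whose largest signal rose. No NTC library had a peak within 5 kb of an RB1 start. METTL3-KO had 2438 and 1421, WTAP-KO had 201 and 1077, and METTL14-KO had none, so that METTL14-KO resembled NTC in the list. The rise passed the test in METTL3-KO (limma adjusted p = 0.00015), in WTAP-KO (adjusted p = 0.00092) and over the 6 KO libraries (adjusted p = 0.00064). No fold is given, because NTC was listed at 0. The part of the 2000 bp limit on listed peaks in the rise of RB1 was not tested. METTL3-KO was higher than METTL14-KO and WTAP-KO together (adjusted p = 0.0035). A start with no NTC peak and a peak in at least 2 KO libraries was found for 9% of all protein-coding genes, and the combination seen at RB1 (both METTL3-KO, both WTAP-KO, none in METTL14-KO) for 0.124%, or 25 genes. That combination was defined by the values of RB1 itself, so its small share is no measure of how unusual RB1 is. In KO libraries, genes without an NTC peak had a median signal of 1047 to 4061, against 673 to 1408 for genes with a peak throughout NTC. RB1 peaks lay on both sides of the start in METTL3-KO (48877209 to 48877924 and 48878622 to 48879134) and only upstream in WTAP-KO (48877235 to 48877627). The WTAP-KO peaks ended 253 bp before the nearest RB1 start. Both places also lay within 1 kb of a start of RB1-DT, a long noncoding RNA gene, so the rise cannot be assigned to RB1 alone.

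The 250 bases before the first start of RB1 (hg19 chr13:48877630-48877879, plus strand) are shown because this was the only member promoter with an E2F motif. Capitals mark the GC box (33 to 28 bases before the start) and the E2F motif (18 to 11 bases before it).
RB1 before the first start: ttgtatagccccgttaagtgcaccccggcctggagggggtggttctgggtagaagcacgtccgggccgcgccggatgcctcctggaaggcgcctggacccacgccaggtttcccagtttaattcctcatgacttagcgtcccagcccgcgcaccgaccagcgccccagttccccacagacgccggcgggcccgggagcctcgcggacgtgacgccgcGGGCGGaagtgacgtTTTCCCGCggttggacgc
The peaks of both METTL3-KO libraries overlapped it, and those of WTAP-KO ended just before it. The stretch also overlaps an exon of RB1-DT. Of the 10 canonical promoters, 9 held a GC box, CCND2 being the exception, and 1 held an E2F motif.

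Farther inside RB1, other peaks set NTC and KO apart. Peaks at 49065534 to 49067109, also within 1 kb of an RCBTB2 start (signals 5620, 6664 and 9914 in NTC) and at 49101365 to 49102606 (4768, 5442 and 6814) were in all 3 NTC libraries and no KO library. A peak at 49105976 to 49107259, within 1 kb of a start of RCBTB2 on the opposite strand, was in all 6 KO libraries and no NTC library. It reached 6714 and 4453 in METTL3-KO, 2046 and 111 in METTL14-KO, and 2620 and 4152 in WTAP-KO. These lie in RB1 introns, 14951 bp or more from any RB1 start.

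CDKN1A, a p53 target that inhibits CDK2, had no peak within 1 kb in 8 of 9 libraries. METTL3-KO replicate 2 had a small peak of 117 in an intron, 576 bp from the canonical start, and 607 at 5 kb. CDKN2A, the inhibitor of CDK4 and CDK6, had no peak in any library at either window, as did 38.1% of protein-coding genes at 1 kb. The nearest peaks on either side left chr9:20692958-25676271 without one in any library, a stretch of 4983 kb with 24 protein-coding genes, among them CDKN2B, MTAP and the type I interferon genes. Of 30370 stretches between peaks in the genome, 22 were at least as long.

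**Figure D4:**
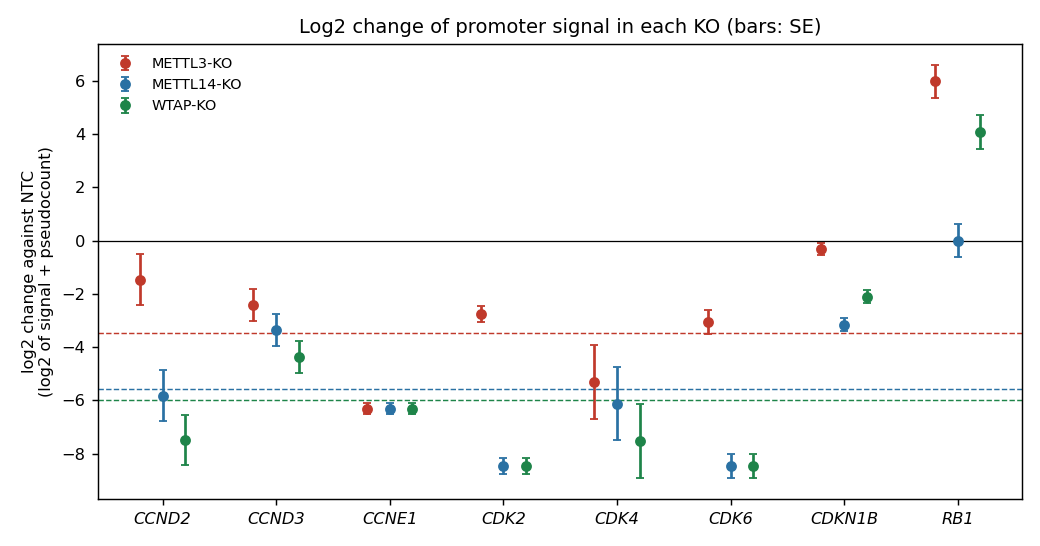
Log2 change of promoter signal against NTC for the 8 members tested (points, y axis, log2 of signal plus pseudocount) for each of the 3 KO groups, with bars for the SE and dashed lines for the median of all 12037 genes in each KO group. METTL3-KO points of CCND2, CCND3, CDK2, CDK6 and CDKN1B lie above their dashed line at -3.48, and RB1 lies above 0 in METTL3-KO and WTAP-KO. Where a group had no peak, the point is set by the pseudocount.

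Of 29 other genes of the G1 to S transition, among them further cyclins, inhibitors, E2F factors and pocket proteins, 25 were tested. Over the 6 KO libraries 18 fell, 2 rose and 5 did not pass, with a median log2 change of -5.36 beside -5.30 over all genes. E2F6 and E2F8, E2F factors that repress transcription, had the lowest log2 changes among those past the threshold (adjusted p = 6.3e-05 and 5.9e-08). E2F8 was at 7346 to 7810 in NTC, 147 and 220 in METTL3-KO, and without a peak in the other KO libraries. E2F6 was at 3447 to 8189 in NTC and had a peak in 1 KO library, METTL3-KO replicate 1 (205). The 2 that rose were CDKN2C, a kinase inhibitor of the CDKN2A family, and TFDP2, an E2F partner (adjusted p = 2.9e-06 and 2.4e-06). CDKN2C had no NTC peak and 3405 to 9492 in the 6 KO libraries, and TFDP2 had no NTC peak and 3499 to 14652 in KO. NTC, without a peak at either gene, added no spread to these fits. The part of the 2000 bp limit on listed peaks in these rises was not tested. SKP2, which targets CDKN1B for degradation, rose in METTL3-KO (log2 change 4.84 ± 1.29, SE, adjusted p = 0.013), where it had 2075 and 1348 against 203 in 1 NTC library and none in the other 2. The 5 that did not pass were CDC25A, CDKN2D, CKS1B, FBXW7 and SKP2, and the 4 not tested, CDK3, CDKN1C, CDKN2B and E2F2, had no peak in any library. Each of the 5 had at least 1 NTC library listed at 0. In NTC, CDC25A stood at 10026, 0 and 8874, FBXW7 at 12151, 11023 and 0, and CDKN2D at 12816.5, 0 and 0. A start listed at 0 in an NTC library can thus carry a strong peak in another. The names of genes that did not pass or were not tested, apart from SKP2, were added after their values were seen.

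The median promoter peak was narrower in KO libraries. The strongest promoter peak of the members had a median width of 1113 to 1364 bp in NTC, 615 and 657 bp in METTL3-KO, 306 and 330 bp in METTL14-KO, and 196 and 393 bp in WTAP-KO. Over all marked genes the medians were 1086 to 1119 bp in NTC and 338 to 553 bp in KO. Of 56 KO peaks within 1 kb of a start of a member, 30 overlapped no NTC peak, against 44.3% of 26442 KO peaks near all protein-coding starts.

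Scaling set the size of every change. With the deposited signal, taken as spike-in calibrated, the median log2 change over the 6 KO libraries was -5.30. After centring each library on the genes marked in all 9 libraries it was -2.46. After centring, 5 members fell (CCND2, CCNE1, CDK2, CDK4 and CDK6) and 2 rose (CDKN1B and RB1), beside 59.2% and 18.2% of all genes, and the change of CCND3 did not pass. Centring moves all genes by the same amount, values listed at 0 included, so the order of the genes is the same under both scalings.

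**Figure D5:**
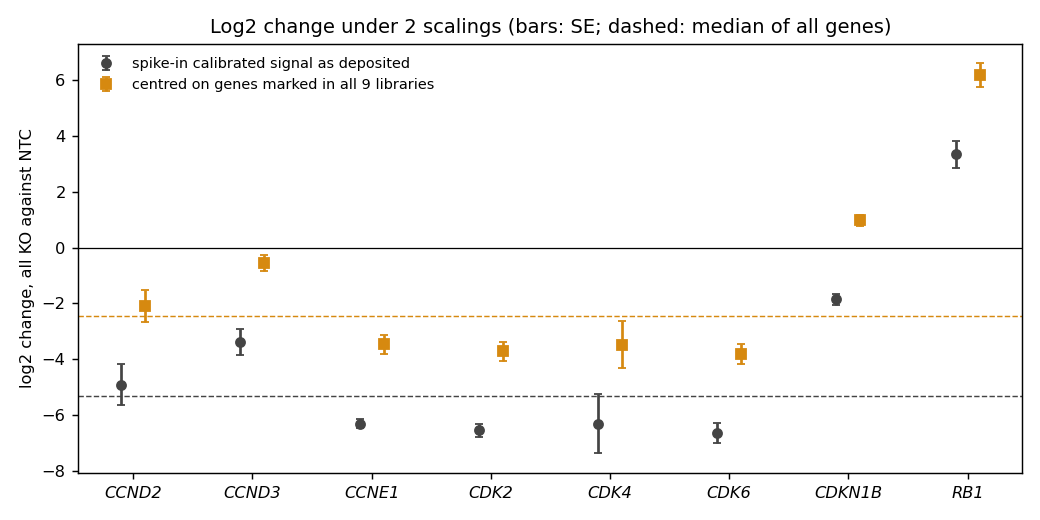
Log2 change over the 6 KO libraries against NTC (y axis) for the 8 members tested, as deposited (dark circles) and after centring each library on the genes marked in all 9 libraries (orange squares), with bars for the SE and dashed lines for the median of all 12037 genes. CDKN1B moves from -1.86 to 0.98, and the points and the dashed line shift together.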

How the data were processed

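H3K4me3 CUT&RUN libraries of HEL cells were grouped by their labels into NTC (3), METTL3-KO, METTL14-KO and WTAP-KO (2 each). Per the study's methods the authors aligned paired reads with Bowtie to hg19 and to the yeast spike-in genome (sacCer3), calibrated by spike-in, removed duplicates with Picard and called peaks in each library. Versions were not given in the sources used here. The authors deposited 1 peak list for each library, giving position and a signal, with depth unknown. The signal was taken as spike-in calibrated, which the lists themselves do not state. Starts were taken as counted from 0 and are printed from 1. All 25 chromosome names were found in the GRCh37 reference.

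Each gene took the largest signal within 1 kb of any GENCODE start (20163 protein-coding genes). Values were log2(signal + 30.1), the pseudocount being the lowest peak signal, so that changes of weak genes are understated. Genes with a peak in at least 2 libraries were fitted with limma 3.58.1 (R 4.3.3), trend on, all 9 libraries in 1 model, with Benjamini-Hochberg adjustment at 0.05 over all 12037. Only the limma comparison of all KO libraries with NTC was tried on simulated data. These were drawn around each gene's mean with Gaussian noise, so libraries listed at 0 were not imitated. Promoter DNA was read from GRCh37. Alternatives changed the window, pseudocount, filter, summary, centring, threshold, block and libraries. All 10 members are named, and of the G1/S list those with the 2 lowest and 2 highest changes plus 1 more. The members and lists were chosen with earlier results of these data known. Some items are not reported here.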

Additional observations from a re-analysis of the deposited data

Results flagged for a closer look

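The difference between METTL3-KO and the other KO groups passed the test for 5 members, with METTL3-KO higher in each. The log2 difference from METTL14-KO and WTAP-KO together was 5.72 for CDK2, 5.40 for CDK6, 5.19 for CCND2, 3.94 for RB1 and 2.32 for CDKN1B (limma, n = 2 against 4 libraries). Both METTL3-KO libraries lay above the 4 others for these 5 genes, as for 41.6% of all genes tested. CDK2 and CDK6 had no peak in the 4 other libraries and RB1 none in METTL14-KO, so that these sizes follow the pseudocount and are no measured folds: with it 0.1 and 10 times as large, CDK2 was at 9.01 and 2.62 and RB1 at 5.63 and 2.12. With the window at 5 kb CCND2 no longer passed (4.13, adjusted p = 0.076) and CDK4 did (2.57, adjusted p = 0.0075).

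A peak outside the promoter windows, in an intron of RB1 and within 1 kb of a start of RCBTB2, was listed for each of the 6 KO libraries and absent from the 3 NTC lists. Its smallest KO signal was 111, in METTL14-KO replicate 2.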

How the results depend on the processing

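Over 860 alternative values of single members, 816 kept their direction and their side of the threshold, 25 no longer passed, 10 newly passed and 9 changed direction. Of 137 alternative counts of members, 131 stayed within 1.5 times. With peaks at or above the median NTC peak signal only, 3 members were called in METTL3-KO and 1 for METTL3-KO against the other KO groups, and members marked averaged 3 in METTL3-KO, 0.5 in METTL14-KO and 1 in WTAP-KO. Over all genes, 888 differed between METTL3-KO and the other KO groups at that threshold, against 3622. With signal per bp, 3 members were called in that comparison.

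Centring each library on the genes marked in all 9 libraries turned CDKN1B to 1.47 in METTL3-KO, 1.57 in WTAP-KO and 0.98 over the 6 KO libraries, and CCND2 in METTL3-KO to 0.32. For METTL3-KO against the other KO groups it turned CCND3 to -0.12 and CDK4 to -0.070. The share of calls that were lower moved from 89.1% to 76.2% in METTL14-KO, from 91.1% to 76.5% in WTAP-KO and from 1.93% to 60.8% (6151 calls) for METTL3-KO against the other KO groups. Centring also shifted values listed at 0, so these calls include genes without a peak on either side of a comparison. CCNE1, without a peak in any KO library, was called for METTL3-KO against the other KO groups. RB1, without a peak in NTC or METTL14-KO, was called in METTL14-KO. These shares therefore do not measure signal alone. CDKN1B in METTL3-KO also turned, to 0.23 with peaks summed and to 0.52 with each library's signal divided by the smallest step between its values. Leaving out 1 library at a time, members called ran from 5 to 7 in METTL3-KO and from 4 to 6 for METTL3-KO against the other KO groups, and stayed at 7 in METTL14-KO, 8 in WTAP-KO and 8 over the 6 KO libraries. CDK4 in the comparison of KO groups ran from -0.70 to 3.73. The causes were not tested, beyond the settings themselves.

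Same-numbered libraries did not deviate together (12 pairs, r from -0.058 to 0.095). In groups of 2 libraries the deviations mirror each other, so some of these pairs repeat others. The check cannot tell whether same-numbered libraries shared a culture or a run. With the replicate number as a block, 6 members were called in METTL3-KO, 7 in METTL14-KO, 8 in WTAP-KO and 8 over the 6 KO libraries, and 5 for METTL3-KO against the other KO groups. The comparison restricted to the groups compared was not run over the 6 KO libraries, which already use every group. The depth behind each signal is unknown, and groups of 2 or 3 libraries limit the precision.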
